A study of Mus musculus with 18 samples.

Results

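Fasting was followed in the liver nuclei that do not bind when hepatocyte nuclei are pulled down, by setting the 3 supernatant libraries of fasted mice against the 3 of fed mice. These are 6 of the 18 libraries of the series, and 13921 of the 20105 genes in the count table passed the filter on low counts and were tested. The mice are HEP-INTACT, a strain whose hepatocyte nuclei bear an affinity tag, and both groups carry it. Fasted mice were without food for 16 h from zeitgeber time 12, when the dark, active phase begins, and fed mice ate ad libitum and were killed at the same hour. All mice were female. Their ages, and the promoter or Cre that restricts the tag, are not given in the sources used here. Fresh liver was used for each supernatant, and the bound nuclei of the same livers (fresh IP, 3 fed and 3 fasted libraries) serve here only to judge how much hepatocyte RNA the supernatant holds. Sample titles carry 6 mouse numbers, so the libraries of a group are separate mice. Libraries are called A, B and C after the columns of the count table, and values of a gene are always given in that order, first the fed and then the fasted mice.

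The supernatant of such a pull-down holds the nuclei of sinusoidal endothelium, resident macrophages (Kupffer cells), stellate cells and fibroblasts, and lymphocytes. Fasting raises circulating glucocorticoids, and the ligand-bound receptor raises genes such as Fkbp5, Tsc22d3 and Per1 in many cell types. In hepatocytes fasting also engages PPAR-alpha, which drives fatty acid oxidation and ketone production, and shuts down SREBP-driven cholesterol synthesis.

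The supernatant libraries held 28315372 to 34770217 counts in fed and 34247281 to 37188834 in fasted mice. Levels are CPM, counts scaled to the library's total. Defining markers of non-hepatocyte nuclei were present: the 20 Kupffer cell and macrophage markers summed to 9329 to 12193 CPM in fed and 7726 to 10274 CPM in fasted libraries, against 354 and 304 CPM in fed and fasted fresh IP. The 20 sinusoidal endothelial markers summed to 4997 to 6290 CPM and 6240 to 7728 CPM, the 20 stellate cell and fibroblast markers to 1531 to 2310 CPM and 1767 to 2258 CPM, and the 10 B cell markers to 1827 to 2567 CPM and 1248 to 1628 CPM. Cholangiocyte markers were nearly absent, at 10.9 to 31.8 CPM summed, and Epcam stood at 0.0575 to 0.403 CPM. The cholangiocyte list summed to more in fresh IP, 598 CPM fed and 271 CPM fasted, so its sum does not mark bile duct nuclei here. The hemoglobin genes Hba-a1 and Hbb-bs were at 0 in all 6 libraries.

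Hepatocyte RNA was present too. Over the hepatocyte markers with at least 10 CPM in fresh IP, the supernatant level was a median of 4.02, 5.48 and 3.95% of the IP level in fed libraries A, B and C, and of 6.73, 5.07 and 7.31% in fasted ones. Single markers ranged from 1.11% (G6pc, fed C) to 40.0% (Apoa2, fed B). The mean share was 4.48 ± 0.86% in fed and 6.37 ± 1.16% in fasted libraries (SD, n = 3), and fed B lay above fasted B. Alb, the serum albumin gene, was at 174, 446 and 227 CPM fed and 603, 427 and 599 CPM fasted (log2 0.90 ± 0.44, adjusted p = 0.159). This median share times the IP level of a gene is called its hepatocyte share below. It rests on a median over markers, and a transcript can leak more or less than the markers do.

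In all, 866 of the 13921 genes tested (6.22%) passed at an adjusted p under 0.05 by edgeR's quasi-likelihood test, 471 of them higher (3.38%) and 395 lower (2.84%) in fasted mice. The median log2 change was 0.92 among the higher and -0.76 among the lower genes, and 0.005 over all genes tested. DESeq2 called 1871 genes, 928 higher and 943 lower. Its counts in the lists below stand against these totals and not against the edgeR shares. The 3 fasted and 3 fed libraries did not overlap in CPM for any of the 866 genes. Lack of overlap in a called gene below therefore describes its values and adds no support to its call. Over all genes tested, 18.0% lay wholly above and 11.9% wholly below. An unadjusted p under 0.05 by edgeR was reached by 3221 of the 13921 genes. Of the 471 higher genes, the change in hepatocyte share was under 10% of the measured change in 322, from 10 to 50% in 68 and at least 50% in 81, and of the 395 lower genes the same counts were 346, 10 and 39. The 8619 genes at or above their IP level had 281 higher (3.26%) and 314 lower (3.64%), and the 5302 genes below it had 190 higher (3.58%) and 81 lower (1.53%). Log2 changes are fasted minus fed, ± the standard error, and a call is said to end without a library when it missed the threshold in the fit over the other 5. The call count depends on single mice: it was 197 without fasted A, 316 without fed B, 327 without fed C, 473 without fasted C and 541 without fasted B. Supernatant RNA pools many cell types, so fewer nuclei of a type and less RNA per nucleus cannot be told apart in any of these changes.

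**Figure D1:**
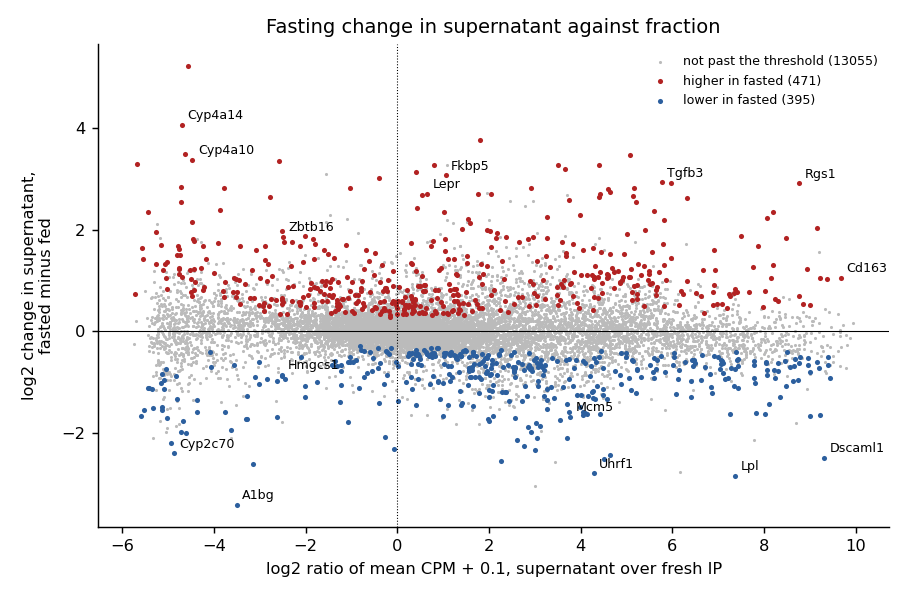
Each point is 1 of the 13921 genes tested, with its supernatant to fresh IP ratio of mean CPM + 0.1 (log2) on the x axis and its log2 change in supernatant, fasted minus fed, on the y axis. Red genes (471) were higher and blue genes (395) lower in fasted mice, and called genes lie on both sides of the dotted line where the 2 fractions are equal.

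**Figure D2:**
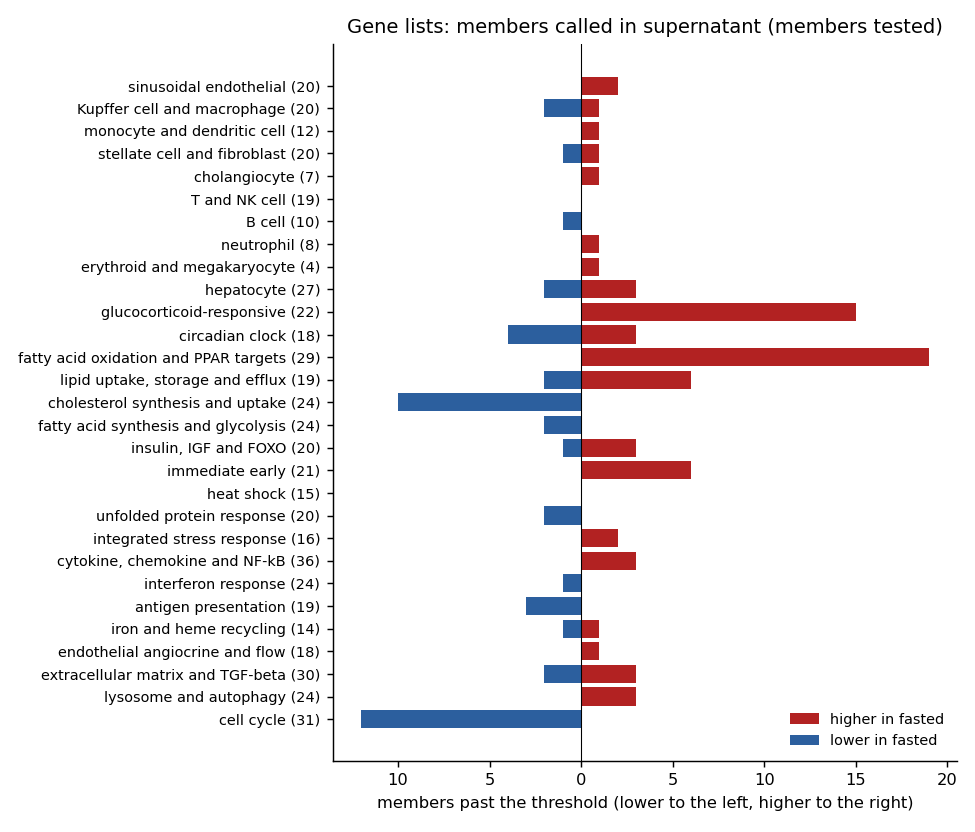
Bars give, for each of 29 gene lists, how many members were higher (red, to the right) or lower (blue, to the left) in fasted supernatant, with the number of members tested in parentheses. The fatty acid oxidation list had 19 higher, the glucocorticoid-responsive list 15 higher, the cell cycle list 12 lower and the cholesterol list 10 lower.

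Of 22 glucocorticoid-responsive genes, all tested, 15 were higher and none lower, with a median log2 change of 1.48 against 0.005 over all genes, and 3.38% of all genes were called higher. Members of this list and the lists below were chosen with earlier results of these data known, so their counts are no independent test. Fkbp5 (chromosome 17, 28398753 to 28486149, minus strand), a co-chaperone of the glucocorticoid receptor and a feedback inhibitor of its signal, stood at 80.4, 87.5 and 93.0 CPM fed and 1033, 614 and 593 CPM fasted, an 8.37-fold rise (log2 3.07 ± 0.26, adjusted p = 0.00153). The fasted libraries lay far above the fed ones, with fasted A highest. Its level in fresh IP was 101 CPM fed and 299.7 CPM fasted, and hepatocyte share made up 2.20% of its change. Tsc22d3 (chromosome X, 140539529 to 140600522, minus strand) encodes the anti-inflammatory leucine zipper protein GILZ. It stood at 69.1, 55.8 and 64.6 CPM fed and 173, 125 and 157 CPM fasted (log2 1.23 ± 0.15, adjusted p = 0.00515), again with no overlap.

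Members that are nearly silent in fresh IP rose as well. Il1r2 (chromosome 1, 40084768 to 40125226, plus strand), the decoy receptor that captures interleukin 1, stood at 2.79, 2.13 and 2.08 CPM fed and 23.0, 10.7 and 10.4 CPM fasted (log2 2.62 ± 0.38, adjusted p = 0.00919). Hif3a (chromosome 7, 17030993 to 17062427, minus strand), a hypoxia-inducible factor subunit, stood at 1.98, 1.83 and 2.33 CPM fed and 17.3, 10.7 and 11.2 CPM fasted (log2 2.64 ± 0.23, adjusted p = 0.00271). In fresh IP Il1r2 was at 0 CPM fed and 0.0143 CPM fasted, and Hif3a at 0.0919 CPM fed and 0.433 CPM fasted. In both genes the fasted A value was the highest of the 3, and the lowest fasted library still lay over 3 times above the highest fed one. Klf9, a transcription factor that answers glucocorticoid and thyroid hormone, was at 51.3, 38.3 and 35.9 CPM fed and 149, 96.9 and 123 CPM fasted (log2 1.52 ± 0.22, adjusted p = 0.00717). The metallothioneins Mt1 (log2 1.81 ± 0.23) and Mt2 (log2 2.65 ± 0.29) rose from no more than 1.75 CPM in any fed library, and since they are close paralogs their reads may not be split cleanly.

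Zbtb16, the transcription factor PLZF, was at 93.8 ± 18.5 CPM in fed and 349 ± 33.7 CPM in fasted supernatant (SD, n = 3; log2 1.86 ± 0.18, adjusted p = 0.00244), and its groups did not overlap. Its level in fresh IP was 272 CPM fed and 2216 CPM fasted, and 50.6% of its change equals the change in hepatocyte share. Ddit4, an inhibitor of mTORC1, rose by log2 3.76 ± 0.79, Dusp1, a phosphatase that turns off MAP kinases, by log2 2.35 ± 0.57, and Per1 by log2 2.43 ± 0.54. Smaller rises were seen for Map3k6 (log2 1.84 ± 0.34), Cdkn1a, the cell cycle inhibitor p21 (log2 1.45 ± 0.33), the kinase Sgk1 (log2 0.53 ± 0.11) and Pik3r1, the regulatory subunit of PI3 kinase (log2 0.49 ± 0.07). The other 7 members had log2 changes of -0.59 to 1.10 and adjusted p = 0.0784 to 0.477. Of the 15 called genes, 8 (Tsc22d3, Fkbp5, Zbtb16, Klf9, Mt1, Mt2, Il1r2 and Hif3a) kept their call whichever library was left out, and the count was 8 without fasted A or fed C, 10 without fed B and 12 to 14 without the others. In 1 fit over all 4 fresh groups, supernatant and IP, 10 members were higher, and the calls of Mt1 (adjusted p = 0.142), Mt2 (0.122), Pik3r1 (0.107), Sgk1 (0.639) and Cdkn1a (0.0908) ended. Here and below, this fit has no term for the mouse, although both fractions come from the same mice. Its spread is also set by the IP libraries, so a call that ended in it does not show more spread in supernatant. With hepatocyte share subtracted from every library, 14 members were higher. Ddit4 ended without fasted A or fed B or C (adjusted p = 0.0588 to 0.0653), and Dusp1 without fasted A or C or fed B or C (adjusted p = 0.0519 to 0.0808). Map3k6 ended without fasted A or fed B or C (adjusted p = 0.0514 to 0.0627), Per1 without fasted A or fed C (adjusted p = 0.0732 to 0.0752) and Pik3r1 without fasted A or B or fed C (adjusted p = 0.0557 to 0.0921). Sgk1 ended without fasted A or C or any fed library (adjusted p = 0.0534 to 0.103). The same removals ended Cdkn1a (adjusted p = 0.0575 to 0.0906), whose hepatocyte share made up 32.8% of its change.

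**Figure D3:**
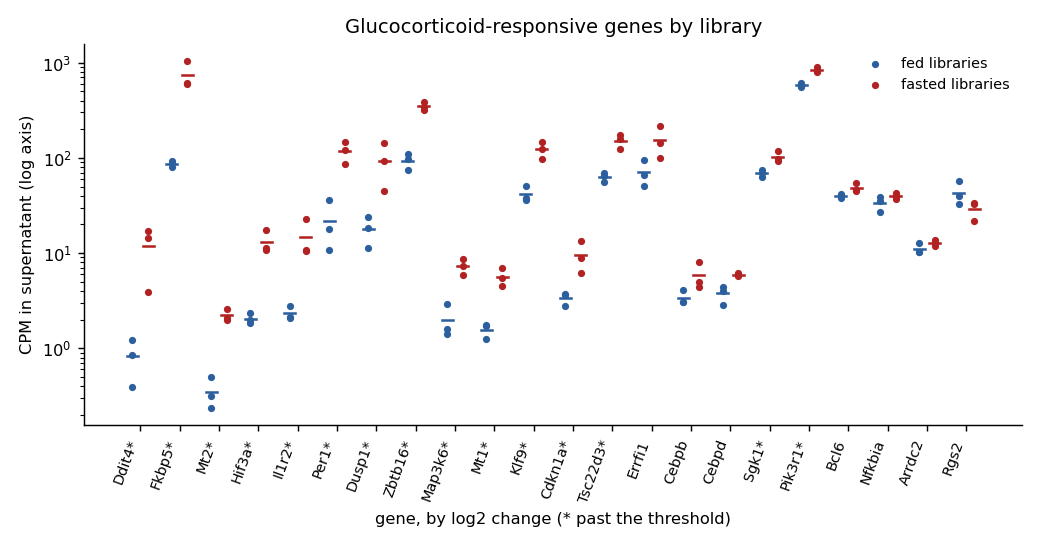
Points are single supernatant libraries (fed blue, fasted red) and lines are group means, in CPM on a log axis, for the 22 glucocorticoid-responsive genes tested, ordered by log2 change, with called genes starred. From Ddit4 to Tsc22d3 the fed and fasted libraries of every starred gene are apart, and 1 of the 22 members has a negative change.

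Immediate early genes, which code for transcription factors and feedback enzymes induced within minutes of a stimulus, had 6 of 21 tested members higher and none lower (median log2 0.75). The share of all genes tested that were higher was 3.38%. Fosl2, an AP-1 subunit, stood at 52.7, 36.9 and 29.3 CPM fed and 194, 128 and 160.2 CPM fasted (log2 1.99 ± 0.29, adjusted p = 0.0068). Every fasted library lay above every fed one, and the call was kept in all removals. Fos, the best known AP-1 subunit, was at 7.13, 4.32 and 2.47 CPM fed and 50.8, 11.97 and 21.4 CPM fasted (log2 2.55 ± 0.73, adjusted p = 0.0443). Fasted A was more than 2-fold above the other fasted libraries, and the call ended without fasted A or C or any fed library (adjusted p = 0.0602 to 0.121). Maff (log2 1.38 ± 0.33), Nr4a1 (log2 1.02 ± 0.30) and Fosb (log2 0.87 ± 0.13) rose near the threshold. The calls ended without fasted A or C or any fed library (adjusted p = 0.0583 to 0.13) for Nr4a1 and without fasted A or C or any fed library (adjusted p = 0.0748 to 0.138) for Maff. Fosb was lost in every removal (adjusted p = 0.0731 to 0.154). The list's count was 1 without fasted A, fed B or fed C and 2 with hepatocyte share subtracted (Fosl2 and Dusp1). Summed over its members the list stood at 233 to 274 CPM in fed and 419 to 752 CPM in fasted libraries, with no overlap. Nr4a1 (adjusted p = 0.524), Fosb (0.169) and Maff (0.0924) also ended in the fit over the 4 fresh groups.

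Clock genes moved both ways. The clock is a transcription loop in which ARNTL with its partner CLOCK binds E-boxes of Per, Cry and Nr1d genes, PER and CRY proteins repress them, and DBP and its antagonist NFIL3 compete at D-boxes. Of 18 tested members 3 were higher and 4 lower, with a median log2 change of 0.25, beside 3.38% and 2.84% of all genes tested. Per1 (chromosome 11, 69098956 to 69109957, plus strand) stood at 36.2, 10.8 and 17.7 CPM fed and 148, 86.3 and 121 CPM fasted (log2 2.43 ± 0.54, adjusted p = 0.02), with no overlap. Cry1 (log2 0.72 ± 0.13, adjusted p = 0.0235) and Nfil3 (log2 1.0 ± 0.21, adjusted p = 0.03) were higher too. On the falling side, Nr1d1, the repressor REV-ERB-alpha, stood at 22.0, 18.8 and 14.6 CPM fed and 6.80, 4.35 and 6.51 CPM fasted (log2 -1.68 ± 0.25, adjusted p = 0.00826). Every fasted library lay below every fed one, and the call was kept in all removals. Dbp was at 5.69, 4.50 and 4.34 CPM fed and 2.37, 1.90 and 1.37 CPM fasted (log2 -1.40 ± 0.24, adjusted p = 0.0174) and ended without fed B (adjusted p = 0.0527). Nr1d2 (log2 -0.67 ± 0.14) and Per3 (log2 -0.71 ± 0.16) fell by less. All 4 are more abundant in fresh IP, and their means there were lower in fasted mice too: Nr1d1 was at 121 CPM fed and 28.9 CPM fasted and Dbp at 15.6 CPM fed and 0.733 CPM fasted. The change in hepatocyte share came to 28.6% of the measured fall for Nr1d1, 21.9% for Dbp, 16.2% for Per3 and 4.63% for Nr1d2. After its subtraction 3 of the 4 falls remained called, with Per3 at adjusted p = 0.0644. Cry1 ended without fasted A or B or any fed library (adjusted p = 0.0547 to 0.0812) and Nfil3 without fasted A or C or any fed library (adjusted p = 0.0569 to 0.104). Nr1d2 ended without fasted A or B or fed A or B (adjusted p = 0.0547 to 0.0945) and Per3 without any fasted library or fed A or B (adjusted p = 0.0544 to 0.108). Per1 was lost without fasted A or fed C (adjusted p = 0.0732 to 0.0752). In the fit over the 4 fresh groups Cry1 ended (adjusted p = 0.108).

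The promoters of the clock genes are shown because 2 members of one family, Per1 and Per3, moved in opposite directions. Each is the 250 bases before the RefSeq start on GRCm38.p6, 5′ to 3′ in the gene's direction, with E-boxes (CACGTG) and D-boxes (TTATGNAA), searched on both strands, in capitals.
Per1 (chr11:69098699-69098948, plus strand): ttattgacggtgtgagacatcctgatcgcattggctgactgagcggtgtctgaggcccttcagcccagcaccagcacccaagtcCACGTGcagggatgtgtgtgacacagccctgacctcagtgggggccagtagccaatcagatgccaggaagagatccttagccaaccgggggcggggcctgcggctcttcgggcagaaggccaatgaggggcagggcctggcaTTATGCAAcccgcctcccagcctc
Per3 (chr4:151044666-151044915, minus strand): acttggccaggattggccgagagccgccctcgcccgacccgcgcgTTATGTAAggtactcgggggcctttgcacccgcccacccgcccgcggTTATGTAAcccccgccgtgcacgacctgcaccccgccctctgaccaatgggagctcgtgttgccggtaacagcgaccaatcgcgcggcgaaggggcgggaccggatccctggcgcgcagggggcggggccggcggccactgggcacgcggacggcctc
Cry1 (chr10:85185055-85185304, minus strand): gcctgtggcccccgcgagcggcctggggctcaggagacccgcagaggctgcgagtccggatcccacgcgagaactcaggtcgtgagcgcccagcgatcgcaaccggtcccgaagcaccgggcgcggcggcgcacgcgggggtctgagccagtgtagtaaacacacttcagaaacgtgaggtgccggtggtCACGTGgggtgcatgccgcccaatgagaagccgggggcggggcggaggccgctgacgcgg
Per1, which rose, has an E-box starting 166 and a D-box starting 24 bases before the start. Per3, which fell, has D-boxes 205 and 158 bases before it, and Cry1 has an E-box 60 bases before it. Among the 7 called clock genes 2 had an E-box (28.6%) and 2 a D-box (28.6%), against 8.17% and 2.06% of the 10647 tested genes with a promoter in the table. Over all 15 tested clock genes with a promoter, called or not, 5 had an E-box (33.3%) and 2 a D-box (13.3%). Of the 14 called glucocorticoid-responsive genes 4 had an E-box (28.6%). The full palindromic glucocorticoid response element was in none of the 14 called glucocorticoid-responsive genes with a promoter and in 1 of the 10647. Its core TGTTCT was in 2 of the 14 (14.3%) and in 11.2% of all. These are letter matches in a short window and show no binding.

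Of 31 cell cycle genes, all tested, 12 were lower and none higher (2.84% of all genes were lower), with a median log2 change of -0.73, and 29 of the 31 changes were negative. These members too were chosen with earlier results of these data known. Mcm5 (chromosome 8, 75109509 to 75128439, plus strand), a subunit of the MCM2-7 helicase that opens replication origins, stood at 15.9, 18.7 and 15.2 CPM fed and 5.40, 5.69 and 4.79 CPM fasted, a 3.21-fold fall (log2 -1.68 ± 0.12, adjusted p = 0.00244). The fed and fasted libraries were tightly grouped and far apart. Mcm2 (log2 -1.19 ± 0.06), Mcm3 (log2 -0.73 ± 0.10), Mcm4 (log2 -0.71 ± 0.05) and Mcm6 (log2 -0.67 ± 0.09) fell by less, so that 5 of the 6 helicase subunits on the list passed, and the remaining one, Mcm7, stood at log2 -0.43 (adjusted p = 0.134). Both E-type cyclins on the list were lower. Ccne2 was at 2.67, 2.72 and 2.37 CPM fed and 0.403, 0.642 and 0.555 CPM fasted (log2 -2.31 ± 0.20, adjusted p = 0.00515). The change of Ccne1 was log2 -1.72 ± 0.30. The E2F factors E2f1, an activator of S phase genes (log2 -1.08 ± 0.12, adjusted p = 0.00862), and E2f8, a repressor of them (log2 -1.78 ± 0.10, adjusted p = 0.00294), were both lower. Mki67, the proliferation marker Ki-67, was at 65.9, 82.6 and 53.0 CPM fed and 26.8, 44.6 and 29.6 CPM fasted (log2 -1.03 ± 0.30, adjusted p = 0.0464). Top2a, the topoisomerase of dividing cells, stood at log2 -1.26 ± 0.30. The list's members that act in mitosis, such as kinases, kinetochore proteins and B-type cyclins, did not pass (adjusted p = 0.0785 to 0.839). Over the whole list 23 members had an unadjusted p under 0.05 by edgeR, as had 3221 of all 13921 genes tested. DESeq2 called 19 members lower, and 943 over all genes. The missed calls therefore show no difference between replication and mitosis genes. Another 5 genes of replication or cell division, which are not on the list, are named here because they were among the largest falls. Uhrf1 (chromosome 17, 56303337 to 56323486, plus strand), which maintains DNA methylation behind the replication fork, stood at 9.81, 9.17 and 7.52 CPM fed and 0.941, 1.75 and 1.23 CPM fasted, 6.91-fold lower (log2 -2.79 ± 0.28, adjusted p = 0.00289). Dtl, the adaptor that marks Cdt1 for destruction in S phase, was at 9.29, 10.9 and 6.96 CPM fed and 1.53, 2.66 and 1.34 CPM fasted (log2 -2.33 ± 0.36, adjusted p = 0.00872). For both genes the highest fasted library was less than 50% of the lowest fed one. Pole, the catalytic subunit of DNA polymerase epsilon (log2 -1.67 ± 0.30, adjusted p = 0.012), Clspn, the checkpoint mediator claspin (log2 -1.64 ± 0.29, adjusted p = 0.0122), and Kntc1, a kinetochore protein (log2 -2.43 ± 0.43, adjusted p = 0.0102), fell too. In every removal Ccne2, Mcm2, Mcm5, E2f1, E2f8, Uhrf1, Dtl, Pole, Clspn and Kntc1 kept their calls. The list's count was 5 without fasted A, 6 without fed B, 7 without fed C, 9 without fasted C or fed A and 16 without fasted B, and 11 with hepatocyte share subtracted. In the fit over the 4 fresh groups it was 8, and E2f8 (adjusted p = 0.182), Mcm4 (0.113), Mcm3 (0.0821) and Mki67 (0.0522) ended. Mki67 ended without fasted A or C or any fed library (adjusted p = 0.0653 to 0.145), and Top2a without fasted A or C or any fed library (adjusted p = 0.0544 to 0.092). Mcm6 ended without fasted A (adjusted p = 0.0743), Mcm3 without fasted A or fed B (adjusted p = 0.0506 to 0.0636) and Mcm4 without fasted A or B or fed B or C (adjusted p = 0.0532 to 0.0705). Ccne1 ended without fasted A or fed B or C (adjusted p = 0.0636 to 0.0891), and Rrm2, a subunit of ribonucleotide reductase (log2 -1.40 ± 0.30), without fasted A or C or any fed library (adjusted p = 0.0571 to 0.119). In which nuclei these genes are expressed was not tested.

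**Figure D4:**
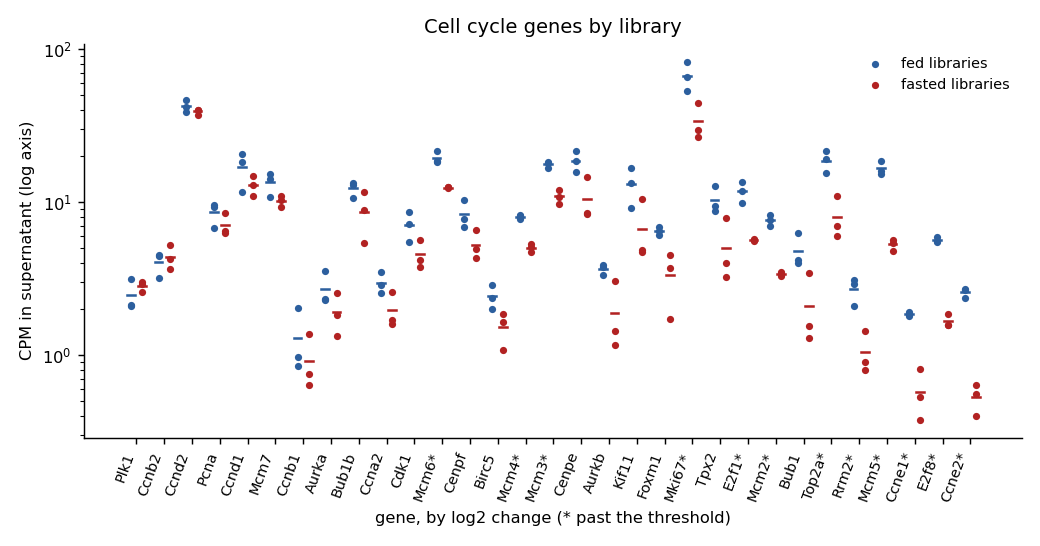
Points are single supernatant libraries (fed blue, fasted red) and lines are group means, in CPM on a log axis, for the 31 cell cycle genes, ordered by log2 change, with called genes starred. Mcm5, E2f8, Ccne1 and Ccne2 at the right have every fasted library well below every fed one.

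The promoters of Mcm5 and Mcm6 are shown because both helicase genes fell and both hold E2F elements (TTTCGCGC or TTTGGCGC, both strands, here in capitals, where overlapping matches form 1 run). The motif was picked after the calls were seen.
Mcm5 (chr8:75109259-75109508, plus strand): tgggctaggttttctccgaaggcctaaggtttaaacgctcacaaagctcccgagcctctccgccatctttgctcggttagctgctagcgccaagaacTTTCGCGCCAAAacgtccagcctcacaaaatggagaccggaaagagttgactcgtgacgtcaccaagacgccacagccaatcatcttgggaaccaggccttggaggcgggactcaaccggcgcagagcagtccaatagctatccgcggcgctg
Mcm6 (chr1:128359706-128359955, minus strand): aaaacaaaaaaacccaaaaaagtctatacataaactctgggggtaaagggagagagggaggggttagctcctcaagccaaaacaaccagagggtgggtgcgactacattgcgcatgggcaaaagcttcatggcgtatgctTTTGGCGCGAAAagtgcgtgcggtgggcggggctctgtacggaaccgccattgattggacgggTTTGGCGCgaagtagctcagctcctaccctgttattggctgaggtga
The run in Mcm5 holds 2 overlapping matches, starting 153 and 149 bases before the start, and Mcm6 has 3 matches, 110, 106 and 47 bases before it. Of the 10 called cell cycle genes with a promoter in the table, 2 held an E2F element (20.0%), against 1.25% of all 10647. Over all 23 tested cell cycle genes with a promoter, called or not, 3 held one (13.0%). Of the 293 genes called lower that have a promoter, 8 held one (2.73%).

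Macrophage genes showed a fall of some and a rise of others. Of 20 Kupffer cell and macrophage markers 1 was higher and 2 were lower, with a median log2 change of -0.30 and 16 negative changes. Over all genes tested 3.38% were higher and 2.84% lower. DESeq2 called 1 of the markers higher and 8 lower, and 928 and 943 over all genes. Folr2 (chromosome 7, 101839988 to 101857190, minus strand), the folate receptor of resident macrophages, stood at 40.4, 50.7 and 49.1 CPM fed and 17.6, 17.8 and 11.1 CPM fasted, 3.09-fold lower (log2 -1.63 ± 0.25, adjusted p = 0.00769). All fasted libraries lay below all fed ones. Nr1h3, the oxysterol receptor LXR-alpha, fell by less (log2 -0.56 ± 0.11, adjusted p = 0.0266), and its call ended without fasted A or C or fed B or C (adjusted p = 0.0542 to 0.101).

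Cd163 (chromosome 6, 124304651 to 124330527, plus strand), the scavenger receptor for hemoglobin and haptoglobin, went up instead, at 390.4, 379 and 512 CPM fed and 1160.2, 875 and 691 CPM fasted (log2 1.05 ± 0.25, adjusted p = 0.0276). Fasted C was closest to the fed values, and the call ended without fasted A or B or fed A or B (adjusted p = 0.0605 to 0.0878). The defining markers Clec4f (log2 0.08 ± 0.15, adjusted p = 0.778), Adgre1, which encodes F4/80 (log2 -0.71 ± 0.22, adjusted p = 0.0592), and Cd5l (log2 -1.14 ± 0.53, adjusted p = 0.122) did not pass. Adgre1 was at 1323, 1864 and 1302 CPM fed and 942, 1065 and 794 CPM fasted, so its libraries were apart although the test missed the threshold. Summed over the list, fed libraries were at 9329 to 12193 CPM and fasted ones at 7726 to 10274 CPM, which overlap.

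Of 12 monocyte and dendritic cell markers 1 was higher and none lower, 6 changes were positive and 6 negative, and the median log2 change was 0.01. Among all genes tested 3.38% were higher and 2.84% lower. DESeq2 called 2 higher and 3 lower, and 928 and 943 over all genes. Ms4a4a and Ccl9, which are not on that list, are named for their size. Ms4a4a, a tetraspan protein of alternatively activated macrophages, stood at 0.978, 1.69 and 2.33 CPM fed and 17.0, 9.49 and 12.1 CPM fasted (log2 2.93 ± 0.43, adjusted p = 0.0069). Ccl9, a chemokine of myeloid cells, was at 1.09, 1.243 and 1.06 CPM fed and 15.9, 6.92 and 11.0 CPM fasted (log2 3.27 ± 0.34, adjusted p = 0.004). Both were kept in every removal, and fasted A was the highest library in both. Itgam, the integrin CD11b, was the 1 called marker (log2 1.05 ± 0.24, adjusted p = 0.0217), and its call ended without fasted A or C or fed A or C (adjusted p = 0.0552 to 0.0797). Of iron genes, Tfrc (chromosome 16, 32608896 to 32632794, plus strand), the transferrin receptor, was at 52.5 ± 4.50 CPM in fed and 26.1 ± 1.68 CPM in fasted supernatant (SD, n = 3; log2 -1.04 ± 0.09, adjusted p = 0.00382). Its fed and fasted libraries were apart, and the call was kept in every removal. It and Cd163 were the called members of 14, and the iron exporter gene Slc40a1 did not pass (log2 -0.51 ± 0.18, adjusted p = 0.0955).

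The endothelial markers that passed were all higher, where 3.38% of all genes tested were higher. Of 20 sinusoidal endothelial markers 2 were higher, 18 changes were positive, and the median log2 change was 0.38. Stab1, a scavenger receptor of sinusoidal endothelium, was at 350.3, 210.0 and 258 CPM fed and 474, 442 and 532 CPM fasted (log2 0.79 ± 0.22, adjusted p = 0.0416). Lyve1, the hyaluronan receptor, was at 10.9, 6.48 and 6.75 CPM fed and 22.5, 29.0 and 75.6 CPM fasted (log2 2.37 ± 0.58, adjusted p = 0.0318), and fasted C was far above the other libraries. Stab1 ended without any fasted library or fed B or C (adjusted p = 0.077 to 0.125) and Lyve1 without any fed library (adjusted p = 0.0547 to 0.104). Stab2 (log2 0.36 ± 0.14, adjusted p = 0.153), Pecam1 (log2 0.40 ± 0.18, adjusted p = 0.146) and Mrc1 (log2 0.10 ± 0.11, adjusted p = 0.657) did not pass. The list summed to 4997 to 6290 CPM in fed and 6240 to 7728 CPM in fasted libraries, so the groups overlap. Stab1 also ended in the fit over the 4 fresh groups (adjusted p = 0.113).

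Thbd, thrombomodulin, the endothelial receptor that turns thrombin toward protein C activation, was the 1 called member of 18 angiocrine and flow genes. It stood at 4.75, 3.94 and 2.83 CPM fed and 19.0, 13.9 and 14.2 CPM fasted (log2 1.99 ± 0.25, adjusted p = 0.00515). The groups did not overlap, and the call was kept in every removal. Vcam1 (chromosome 3, 116110020 to 116129688, minus strand), the adhesion molecule that binds leukocyte integrins, stood at 62.4, 71.6 and 100.1 CPM fed and 333, 221 and 330.2 CPM fasted, a 3.68-fold rise (log2 1.88 ± 0.28, adjusted p = 0.00696). The lowest fasted library was more than 2-fold above the highest fed one, and this call too was kept in every removal. Fresh IP held 0.824 CPM fed and 1.03 CPM fasted.

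Stellate cell and fibroblast genes gave 1 higher and 1 lower call among 20 tested markers, with a median log2 change of -0.09. Over all genes tested 3.38% were higher and 2.84% lower, so these calls describe single genes and not the list. Col3a1, a fibrillar collagen, stood at 43.0, 35.5 and 42.5 CPM fed and 14.9, 15.2 and 19.6 CPM fasted (log2 -1.32 ± 0.15, adjusted p = 0.00515). Col14a1, a fibril-associated collagen of the matrix list, was at 269.7, 204 and 180.0 CPM fed and 71.7, 82.0 and 111 CPM fasted (log2 -1.33 ± 0.25, adjusted p = 0.0134). Fed and fasted libraries were apart for both, and Col14a1 ended without fasted A (adjusted p = 0.0531). Pdgfra, the receptor of portal fibroblasts and stellate cells, was higher (log2 1.04 ± 0.30, adjusted p = 0.046) and ended without any fasted library or fed B or C (adjusted p = 0.0757 to 0.145). The stellate markers Lrat (log2 -0.68 ± 0.55, adjusted p = 0.338) and Pdgfrb (log2 -0.42 ± 0.15, adjusted p = 0.0956) did not pass.

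Of the 30 matrix and TGF-beta genes 3 were higher and 2 lower (median log2 -0.15), beside 3.38% and 2.84% of all genes tested. Tgfb3 (chromosome 12, 86056743 to 86079041, minus strand), a TGF-beta ligand, stood at 4.31, 2.63 and 2.83 CPM fed and 26.4, 21.6 and 28.3 CPM fasted, a 7.61-fold rise (log2 2.93 ± 0.23, adjusted p = 0.00153). Its fasted libraries were all at least 5-fold above the highest fed one, and the call was kept in every removal. Ctgf, a matricellular protein, rose by log2 2.79 ± 0.58 and ended without fed B (adjusted p = 0.052). Timp3, an inhibitor of metalloproteinases, rose by log2 1.11 ± 0.31 and ended without fasted A or C or fed B or C (adjusted p = 0.0744 to 0.107).

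B cell and antigen presentation genes gave lower calls only, and T and NK cell genes none, where 2.84% of all genes tested were lower. Of 10 B cell markers 1 was lower, all 10 changes were negative and the median log2 change was -0.50. Bank1, a B cell scaffold protein, was at 1313, 1626 and 1571 CPM fed and 933, 1025 and 822 CPM fasted (log2 -0.73 ± 0.14, adjusted p = 0.0225), without overlap. Its call ended without fasted A or C or fed B or C (adjusted p = 0.0585 to 0.0939) and in the fit over the 4 fresh groups (adjusted p = 0.13). No T and NK cell marker of 19 passed (1 had an unadjusted p under 0.05, and DESeq2 called 1, which was higher), with 7 changes positive, 12 negative and a median of -0.06. Of the 13921 genes tested 3221 had an unadjusted p under 0.05 by edgeR. Of 19 antigen presentation genes 3 were lower (median -0.29). They were Ciita, the master regulator of MHC class II (log2 -0.66 ± 0.11, adjusted p = 0.0145), Cd40, the costimulatory receptor (log2 -1.11 ± 0.22, adjusted p = 0.0171), and Nlrc5, the MHC class I regulator (log2 -0.43 ± 0.07, adjusted p = 0.0278). Ciita ended without fasted A or fed C (adjusted p = 0.0544 to 0.0594), Cd40 without fasted A or fed C (adjusted p = 0.0512 to 0.06) and Nlrc5 without fasted A or C or any fed library (adjusted p = 0.0609 to 0.114).

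Interferon genes had 1 lower call of 24, the guanylate-binding protein gene Gbp3 (log2 -0.87 ± 0.18, adjusted p = 0.0206), but 23 of the 24 changes were negative, with a median of -0.43. The call count depended on the tool and the library: DESeq2 called 10 lower, without fasted B edgeR called 5, and Gbp3 ended without fasted A or C or fed B or C (adjusted p = 0.0519 to 0.085), when no member was called. Over all genes DESeq2 called 943 lower and edgeR 395 (2.84% of those tested). Summed, the list stood at 1738 to 2217 CPM in fed and 1258 to 1697 CPM in fasted libraries, with no overlap. Among 36 cytokine, chemokine and NF-kB genes 3 were higher and none lower, where 3.38% of all genes tested were higher. They were Vcam1, the neutrophil chemokine gene Cxcl2 (log2 3.28 ± 0.73) and the endotoxin co-receptor gene Cd14 (log2 1.72 ± 0.53). Cxcl2 ended without fasted A or C or any fed library (adjusted p = 0.0518 to 0.0808), and Cd14 in every removal (adjusted p = 0.06 to 0.138). Retnlg was the 1 of 8 neutrophil genes that was higher (log2 1.75 ± 0.43), below 3 CPM, and ended without any fasted library or fed A or C (adjusted p = 0.0647 to 0.131). Pf4, a platelet chemokine gene, was the 1 of 4 erythroid and megakaryocyte genes (log2 2.82 ± 0.55), below 2 CPM, and it ended without fasted A or C or any fed library (adjusted p = 0.07 to 0.103). Tspan8, a tetraspanin of bile duct and other epithelia, was the 1 of 7 cholangiocyte genes (log2 3.01 ± 0.46), and ended without fasted A or any fed library (adjusted p = 0.0623 to 0.103). Its level is low: with a filter of at least 1 CPM in 3 libraries the list had 0 higher calls.

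Lipid handling changed in several genes. Of 19 tested genes for uptake, storage and efflux 6 were higher and 2 lower, beside 3.38% and 2.84% of all genes tested. Abca1, which exports cholesterol to apolipoprotein A-I, stood at 705, 673 and 825 CPM fed and 1342, 1594 and 1294 CPM fasted (log2 0.91 ± 0.13, adjusted p = 0.0105), without overlap. Plin2, the coat protein of lipid droplets, was at 43.4, 39.4 and 39.7 CPM fed and 80.3, 85.8 and 78.6 CPM fasted (log2 0.97 ± 0.06, adjusted p = 0.00268). Both were kept in every removal. In fresh IP Abca1 was at 777 CPM fed and 640.4 CPM fasted, so its mean was no higher in fasted mice, while Plin2 was at 72.7 CPM fed and 228 CPM fasted. The change in hepatocyte share was 0.884% of the Abca1 and 27.7% of the Plin2 change.

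Lpl (chromosome 8, 68880555 to 68906932, plus strand), lipoprotein lipase, had one of the steepest mean falls of the supernatant, at 43.3, 153 and 225 CPM fed and 21.9, 18.0 and 20.5 CPM fasted (log2 -2.84 ± 0.73, adjusted p = 0.0262). The fed libraries differed more than 5-fold among themselves while the fasted ones were alike. The call ended without any fasted library or fed B or C (adjusted p = 0.062 to 0.101). Abcg1, the sterol exporter to HDL, also fell (log2 -0.55 ± 0.13), and ended without fasted A or C or fed B or C (adjusted p = 0.0918 to 0.14). Cd36, the fatty acid translocase, was at 75.9, 71.0 and 89.6 CPM fed and 115, 167 and 235 CPM fasted (log2 1.10 ± 0.32, adjusted p = 0.0431). Its call ended without fasted B or C or any fed library (adjusted p = 0.0655 to 0.118). Plin4, another droplet coat protein, also rose (log2 3.29 ± 0.42), and its hepatocyte share changed by more than its level did (389%). Slc27a1, a fatty acid transporter (log2 1.18 ± 0.27), and Pnpla2, adipose triglyceride lipase (log2 0.88 ± 0.21), rose as well. Slc27a1 ended without fasted A or B or fed A (adjusted p = 0.0556 to 0.0863) and Pnpla2 without fasted A or C or fed B or C (adjusted p = 0.0564 to 0.111). Cd36 (adjusted p = 0.357), Abcg1 (0.257) and Slc27a1 (0.0704) also ended in the fit over the 4 fresh groups.

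Genes of fatty acid oxidation and PPAR targets had the most calls of any list, 19 of 29 higher and none lower, with a median log2 change of 0.62 and all 29 changes positive. The share of all genes tested that were higher was 3.38%. Of the 29, 4 were at or above their IP level. Cyp4a14, a fatty acid omega-hydroxylase, was at 5.06, 5.33 and 4.34 CPM fed and 87.0, 83.1 and 83.3 CPM fasted (log2 4.07 ± 0.09, adjusted p = 7.28e-06) against 92.8 CPM fed and 2229 CPM fasted in fresh IP. Its hepatocyte share came to 4.16 of 4.91 CPM in fed and 142 of 84.4 CPM in fasted mice, more than the fasted level itself. Angptl4, an inhibitor of lipoprotein lipase, rose by log2 2.82 ± 0.28, Ehhadh, a peroxisomal beta-oxidation enzyme, by log2 1.61 ± 0.17, Pdk4, which shuts off pyruvate oxidation, by log2 1.75 ± 0.46 and Cpt1a, the gate of mitochondrial fatty acid import, by log2 0.54 ± 0.14. The change in share was 101% of the measured change for Angptl4, 78.8% for Ehhadh, 47.4% for Pdk4 and 106% for Cpt1a. Some members had a smaller hepatocyte share. Ucp2, an inner mitochondrial membrane transporter of immune cells, was the 1 called gene at or above its IP level, at 144, 116 and 122 CPM fed and 256, 181 and 212 CPM fasted (log2 0.73 ± 0.16, adjusted p = 0.0249). The change in share was 0.0852% of its change. Acot1, an acyl-CoA thioesterase with near-identical paralogs, was at 3.74, 2.66 and 2.30 CPM fed and 9.55, 12.1 and 11.2 CPM fasted (log2 1.88 ± 0.22, adjusted p = 0.00519), where the share made up 42.4%. With the share subtracted, 24 of the 29 could be tested and 4 stayed higher, with Acadl, Acot1 and Ucp2 among them. Cyp4a10 came out at log2 -7.93 (adjusted p = 0.0156), but its share in fasted libraries (54.4 CPM) exceeds its mean fasted level (37.4 CPM). Its subtracted counts are set to 0 there, so this value is no measured fall. Fgf21, the fasting hormone of hepatocytes, was at no more than 0.0296 CPM in fed and at 0.592, 0.555 and 0.438 CPM in fasted libraries. The list's count was 7 without fasted A and 11 to 16 without the others. Ucp2 ended without fasted A or C or fed B or C (adjusted p = 0.0549 to 0.0847). Cpt1a ended without any fasted library or fed B or C (adjusted p = 0.0877 to 0.145) and Pdk4 without any fasted library or fed B (adjusted p = 0.0527 to 0.0929). The fit over the 4 fresh groups left 13 members higher and ended Cpt1a (adjusted p = 0.244), Ucp2 (0.177) and Ehhadh (0.0542).

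Of 24 cholesterol synthesis and uptake genes 10 were lower and none higher, with a median log2 change of -0.71, where 2.84% of all genes tested were lower. None of the 24 was at or above its IP level. Sqle, squalene epoxidase, stood at 3.25, 4.50 and 2.44 CPM fed and 1.08, 0.788 and 0.847 CPM fasted (log2 -1.94 ± 0.28, adjusted p = 0.0122). Its fasted libraries all lay below the fed ones, and it was the 1 member whose call held in every removal. In fresh IP Sqle was at 48.9 CPM fed and 6.81 CPM fasted, and 70.6% of its change equals that in share. Hmgcs1, which makes HMG-CoA, was at 20.4, 29.9 and 21.2 CPM fed and 12.5, 14.8 and 13.2 CPM fasted (log2 -0.85 ± 0.20, adjusted p = 0.0324). The change was log2 -1.72 ± 0.34 for Idi1, an isoprenoid isomerase, and log2 -1.27 ± 0.31 for Fdps, which makes farnesyl diphosphate. The change in share came to 57.1% of the measured change for Hmgcs1, 63.3% for Idi1 and 96.5% for Fdps. With the share subtracted, 0 of the 23 members tested passed, and in the fit over the 4 fresh groups 1 did, where Hmgcs1 (adjusted p = 0.236), Idi1 (0.194), Fdps (0.122) and Sqle (0.0924) ended. DESeq2 called 19 lower, and 943 over all genes. The edgeR count was 2 without fasted A, 3 without fed B, 4 without fasted B or C, 5 without fed C and 6 without fed A. Hmgcs1 ended without any fasted library or fed B or C (adjusted p = 0.051 to 0.122), Idi1 without fasted A or any fed library (adjusted p = 0.0581 to 0.0978) and Fdps without any fasted library or fed A or B (adjusted p = 0.071 to 0.111).

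**Figure D5:**
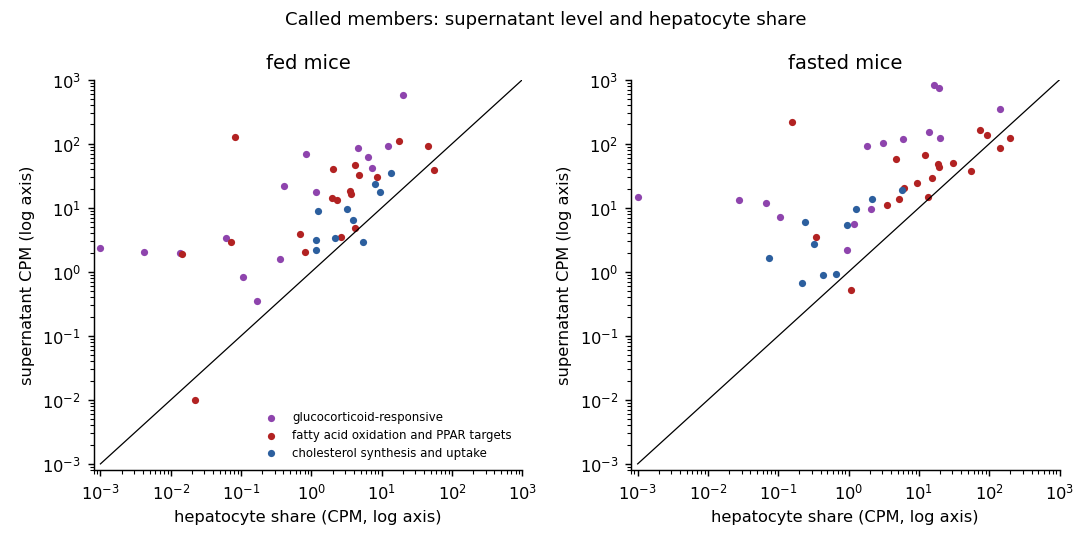
Called members of 3 lists in fed (left) and fasted (right) mice, with the hepatocyte share (median marker share times IP level) on the x axis and the mean supernatant level on the y axis, both in CPM on log axes with values under 0.001 drawn there. On the diagonal the share equals the level, and in fasted mice Cyp4a14 (share 142 CPM, level 84.4 CPM) lies below it.

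Insulin and IGF genes showed 3 higher and 1 lower calls of 20 tested, beside 3.38% and 2.84% of all genes tested. Igf1, the growth factor gene, was at 519, 783 and 776 CPM fed and 360.3, 321 and 341 CPM fasted (log2 -1.06 ± 0.21, adjusted p = 0.0154), without overlap. In fresh IP it was at 1286 CPM fed and 1121 CPM fasted. Insr, the insulin receptor, rose slightly (log2 0.43 ± 0.07), Irs2, its adaptor, by log2 1.08 ± 0.20 and Igfbp1, a hepatocyte IGF-binding protein, by log2 2.83 ± 0.69, of which 9.39%, 60.9% and 168% equalled the change in share. Igf1 ended without fasted A or fed B (adjusted p = 0.0514 to 0.0636) and Igfbp1 without fasted A or fed B (adjusted p = 0.0686 to 0.0726). Irs2 ended without fasted A or fed B or C (adjusted p = 0.0521 to 0.0633), and Insr in every removal (adjusted p = 0.0537 to 0.0969). Of 24 fatty acid synthesis and glycolysis genes 2 were lower, the hexokinases Hk2 and Hk3. Hk2 was at 102, 129 and 123 CPM fed and 63.7, 65.9 and 42.5 CPM fasted (log2 -1.07 ± 0.23, adjusted p = 0.0194). Hk3 was at 249.8, 223 and 228 CPM fed and 169.7, 165 and 144 CPM fasted (log2 -0.58 ± 0.08, adjusted p = 0.0138). Both are nearly absent from fresh IP, at 0.203 CPM fed and 0.0914 CPM fasted for Hk2. Hk2 ended without fasted A or fed B or C (adjusted p = 0.0622 to 0.0641), and Hk3 without fasted A (adjusted p = 0.0531). The fit over the 4 fresh groups also ended Igf1 (adjusted p = 0.363), Hk3 (0.131), Irs2 (0.0867) and Igfbp1 (0.0557).

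Calls in the stress lists are given here beside the 3.38% of all genes tested that were higher and the 2.84% that were lower. None of 15 heat shock genes passed by edgeR or DESeq2 (1 had an unadjusted p under 0.05 by edgeR, as had 3221 of all 13921 genes tested). Of 20 unfolded protein response genes 2 were lower, the endoplasmic chaperone gene Hsp90b1 (log2 -0.51 ± 0.10) and Sdf2l1 (log2 -1.17 ± 0.15). Of 16 integrated stress response genes 2 were higher, Sesn2 (log2 0.83 ± 0.22) and the amino acid transporter subunit Slc3a2 (log2 0.54 ± 0.13), and of 24 lysosome and autophagy genes 3 were higher, the protease Ctsl (log2 0.71 ± 0.19) and the autophagy adaptors Gabarapl1 (log2 0.56 ± 0.05) and Sqstm1 (log2 0.40 ± 0.05). All 7 calls ended without fasted A and at least 1 other library, over adjusted p = 0.0529 to 0.12, 0.0538 to 0.111, 0.0684 to 0.127, 0.0852 to 0.141, 0.0894 to 0.115, 0.0516 to 0.0599 and 0.0536 to 0.108 in that order. Ctsl (adjusted p = 0.0846) and Hsp90b1 (0.0739) also ended in the fit over the 4 fresh groups.

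Among the genes with the largest changes, which were picked from genes whose groups do not overlap, several fall in no list. Slc10a6, a carrier of sulfated steroids, stood at 1.237, 1.18 and 0.636 CPM fed and 11.0, 9.61 and 14.6 CPM fasted, an 11.1-fold rise (log2 3.47 ± 0.34, adjusted p = 0.00244). Edil3, an integrin-binding matrix protein, was at 5.26, 5.83 and 1.70 CPM fed and 29.7, 30.5 and 33.0 CPM fasted (log2 2.82 ± 0.56, adjusted p = 0.00944). Rgs1, a brake on G protein signalling in leukocytes, was at 25.2, 17.2 and 12.9 CPM fed and 210.2, 61.9 and 154 CPM fasted (log2 2.91 ± 0.59, adjusted p = 0.0142). Every fasted library exceeded every fed one in all 3 genes, and in fresh IP each was under 1 CPM. Lepr (chromosome 4, 101717407 to 101815354, plus strand), the leptin receptor, was at 47.2, 34.6 and 60.5 CPM fed and 242, 392 and 312 CPM fasted (log2 2.71 ± 0.31, adjusted p = 0.00317). Its mean was higher in fasted fresh IP as well, at 6.59 CPM fed and 225 CPM fasted, and 5.23% of its supernatant change equals the change in share. Rgs1 ended without fed B or C (adjusted p = 0.0543 to 0.059), and the other 3 calls were kept in every removal.

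Downward, Dscaml1 (chromosome 9, 45430293 to 45753713, plus strand), a cell adhesion molecule, stood at 238, 310.1 and 278 CPM fed and 33.9, 62.3 and 54.4 CPM fasted, 5.61-fold lower (log2 -2.49 ± 0.30, adjusted p = 0.0036). Adamts9, a matrix protease, was at 103, 85.5 and 73.2 CPM fed and 24.0, 24.2 and 31.5 CPM fasted (log2 -1.75 ± 0.19, adjusted p = 0.00317). Gfra2, a receptor of the GDNF family (log2 -1.66 ± 0.26, adjusted p = 0.00862), and Kcna2, a voltage-gated potassium channel (log2 -1.65 ± 0.26, adjusted p = 0.00826), fell too, and these 4 calls were kept in every removal. The fed and fasted libraries of these 4 genes were apart. Tmc3 (log2 -1.63 ± 0.50, adjusted p = 0.0481) ended in every removal (adjusted p = 0.0573 to 0.13).

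Among genes that stand higher in fresh IP, the largest rises were those of Cyp4a14, Cyp4a10, Apoa4, Igfbp1 and Angptl4 and the largest falls those of A1bg, Car3, Cyp2c70, Rgn and Nr1d1. Cyp4a10 rose by log2 3.38 ± 0.25, and Apoa4, an intestinal and hepatic apolipoprotein, was at 1.06, 3.08 and 1.17 CPM fed and 16.4, 6.77 and 15.8 CPM fasted (log2 2.83 ± 0.63, adjusted p = 0.021). It ended without fasted A or C or fed A or C (adjusted p = 0.0502 to 0.0769). A1bg, a plasma glycoprotein gene, was at 8.17, 22.2 and 13.7 CPM fed and 1.75, 0.847 and 1.63 CPM fasted (log2 -3.41 ± 0.53, adjusted p = 0.00862). Its fresh IP was at 183 CPM fed and 1.67 CPM fasted, and 61.0% of the fall equals the change in share. Car3, a carbonic anhydrase (log2 -2.61 ± 0.56), Cyp2c70, a bile acid hydroxylase (log2 -2.40 ± 0.59), and Rgn, the calcium-binding protein regucalcin (log2 -1.74 ± 0.28), fell as well, and the change in share was 42.4%, 171% and 60.2% of theirs. Car3 ended without fasted A or fed B (adjusted p = 0.0532 to 0.0769), Cyp2c70 without fed B or C (adjusted p = 0.0575 to 0.0622) and Rgn without fasted A (adjusted p = 0.0557). Of the 27 hepatocyte markers tested, 3 were higher, Pck1 (log2 1.81 ± 0.53), Apoa1 (log2 1.72 ± 0.39) and Hnf4a (log2 0.77 ± 0.22), and 2 lower, Cyp2c29 (log2 -0.87 ± 0.14) and Cyp7a1 (log2 -1.32 ± 0.34), with a median log2 change of 0.44. Among all genes tested 3.38% were higher and 2.84% lower. Without fasted A, 0 of the 27 were called, and with the share subtracted 1 higher and 1 lower of the 15 that could be tested. The share is the median over these same markers, so its subtraction removes much of their level by construction. Calls lost from this list after subtraction are therefore no result. Over the removals that ended them, adjusted p = 0.0522 to 0.116 for Pck1, 0.0681 to 0.0758 for Apoa1, 0.0794 to 0.131 for Hnf4a, 0.0514 to 0.0654 for Cyp2c29 and 0.0823 to 0.137 for Cyp7a1. Cyp7a1 (adjusted p = 0.145), Pck1 (0.118) and Car3 (0.0809) also ended in the fit over the 4 fresh groups. How far hepatocyte RNA carries the other changes of genes below their IP level was not tested beyond this subtraction.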

How the data were processed

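RNA of liver nuclei from 6 mice was sequenced without poly-A selection in 18 libraries, from 50 to 100 ng of RNA with a stranded kit and paired 50 bp reads, per the labels. The submitters' processing notes name STAR 2.4.2a, DESeq2 1.24.0 and the mouse build mm10, with no role for each. The deposited values are raw counts per gene for 20105 genes. The gene's span in the file is its whole locus, and the counter and its strand setting are not given in the sources used here. Reads of overlapping, antisense or near-identical genes may be split wrongly between them. Columns were assigned to groups by their names. Their letters A, B and C stand in no label, so a column is not tied to a mouse number, and 6 columns that match no sample were not used.

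Counts of 3 fed and 3 fasted fresh supernatant libraries were tested with edgeR 4.0.16 (R 4.3.3): TMM scaling, filterByExpr, quasi-likelihood test, no covariates, Benjamini-Hochberg adjustment over all 13921 genes tested, threshold 0.05. Standard errors of log2 changes come from log2 CPM with a prior count of 2. CPM values divide by the library total. The precision of a level is set by its spread over 3 mice. Libraries of a group correlated at 0.994 to 0.9951 over log2 CPM and differed by far more than sampling noise (chi-square per gene 16.11 to 53.12), so none is a duplicate. The test was checked on simulated data in which 200 genes were changed. There edgeR recovered 68.4% of 2-fold and 99% of 4-fold changes, and 4.6% of its calls were false. DESeq2 recovered 77% and 98%, and 12.5% of its calls were false. The simulated libraries were independent, with no difference in hepatocyte share between groups and no outlying mouse. These rates therefore need not hold for the real calls.

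The hepatocyte share of a supernatant library is the median, over hepatocyte markers at 10 CPM or more in fresh IP, of its level divided by the mean fresh IP level of the same feeding state. For a gene it is that median times its IP level. Members of the 29 gene lists were chosen with earlier results of these data known. Genes named are the 12 largest changes each way among called, non-overlapping genes at 5 CPM or more and at or above their IP level, the 5 largest below it, called list members, the 3 most abundant markers per cell type list and a short fixed set of marker and response genes. Mcm7 was named after its value was seen. Clock and Msr1 are not analysed here, and some list members that were tested are counted but not reported by name. Motifs were searched in the 250 bases before the start in RefSeq promoters on GRCm38.p6, held for 10647 tested genes.

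The alternatives were DESeq2 size factors in edgeR, no TMM, DESeq2 1.42.0, looser and stricter filters, 1 fit over the 4 fresh groups, genes at or above IP level only, subtraction of the hepatocyte share from each library's counts, and leaving out each library.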

Additional observations from a re-analysis of the deposited data

How the results depend on the processing

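The 866 calls (471 higher, 395 lower) became 1871 with DESeq2 (928 higher, 943 lower) and 561 in 1 fit over the 4 fresh groups (305 higher, 256 lower), and 281 genes were higher when only genes at or above their IP level were kept. Leaving out 1 library gave 197 to 624 calls, 128 to 357 higher and 69 to 274 lower, lowest without fasted A each time. Of the 134 called genes among those listed and reported, 46 kept their call whichever library was left out, 88 lost it without at least 1, 82 of them without fasted A, and 38 lost it in no setting that could test them. The single fit over 4 groups ended 41 of the calls and subtraction of the hepatocyte share 37, with another 9 left too low to test, against 0 to 4 under the scaling, filter and DESeq2 settings. The single fit treats all its libraries as independent and takes its spread from IP too. Some of the calls lost to subtraction are of hepatocyte markers, which set the share. After subtraction 5 called genes changed sign, Acadm to log2 -0.26, Cpt1a to -0.05, Cyp4a10 to -7.93, Etfdh to -0.10 and Fdft1 to 0.06. For Cyp4a10 the subtracted share exceeds the fasted level, so its value is set by counts of 0. Of genes that were not called, Clec9a changed sign without TMM (0.03), with the stricter filter (0.0), after subtraction (0.03) and over the removals (-0.07 to 0.07). Removals also turned Epor (-0.17 to 0.09), Il2rb (-0.06 to 0.22), Krt7 (-0.05 to 0.29) and Muc1 (-0.07 to 1.23). The cause of the other changes was not tested. No paired analysis of fed with fasted libraries was possible because they come from different mice and the labels give them no shared replicate number. Supernatant and IP libraries share mice, but their columns are not tied to mouse numbers and were not paired. Depth limits genes under about 1 CPM, and no lack of a call shows that a gene did not change.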
